A study of Arabidopsis thaliana with 4 samples.

Results

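ATGP elements are Ty3/Gypsy retrotransposons, and the regions described here are 775 of the 24806 differentially methylated regions (DMRs) listed over 4 comparisons of light regimes. They were chosen because the transposable element (TE) family named for them by the authors starts with ATGP, with each chromosome, start, end and cytosine context counted once per comparison. The 775 entries are 674 distinct regions in 277 TE loci of 10 families, namely ATGP1, ATGP2, ATGP2N, ATGP3, ATGP5, ATGP6, ATGP7, ATGP8, ATGP9B and ATGP10. Leaf DNA of Arabidopsis thaliana Col-0, the wild-type reference accession, was studied by whole-genome bisulfite sequencing, in which an unmethylated cytosine is read as thymine and a methylated one as cytosine. The plants had been acclimated for 22 days, by the labels, to 1 of 4 regimes, and all were well watered and of 1 genotype. In FLL and FLH the light fluctuated through the day as it does outdoors, and in SQL and SQH (square wave) it stayed at 1 level while the lamps were on. The last letter marks low (L) or high (H) mean intensity, and FL and SQ plants of 1 intensity received the same total light. DNA of several plants was pooled into 1 library per regime, so no difference below has a replicate check, and any test on reads sets 1 library against another rather than 1 growth condition against another.

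Gypsy elements copy themselves through RNA and carry identical long terminal repeats (LTRs) at both ends when they insert. The LTRs hold the promoter, and the internal part between them encodes the capsid protein, protease, reverse transcriptase and integrase. In Arabidopsis these elements lie mostly in the heterochromatin around the centromeres and are kept silent by methylation of cytosines in 3 contexts, where H stands for A, C or T. Methylation in CpG is copied at replication by MET1, methylation in CpHpG is kept by CMT3 together with a histone mark on lysine 9 of histone H3, and methylation in CpHpH is placed by CMT2 or, guided by small RNAs, by DRM2.

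The sequences shown first are those of the 6 ATGP regions listed, in 1 context, in both comparisons of a pair without a common library. Read counts of all 4 regimes were at hand only for these, and their levels in each regime are given further on. For the other regions, counts were at hand only for the libraries of the comparisons that listed them. The stretches are TAIR10 sequence of the plus strand, read 5′ to 3′ from the reference genome. Capitals mark the cytosines of the named context, and a capital G is such a cytosine on the minus strand.
ATGP8 locus AT4TE20605, chr4:4937501-4937650, CpG: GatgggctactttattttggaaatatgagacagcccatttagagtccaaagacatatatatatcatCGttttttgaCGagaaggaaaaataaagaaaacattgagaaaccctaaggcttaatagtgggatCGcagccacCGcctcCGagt
ATGP2 locus AT1TE45795, chr1:13949851-13950000, CpHpH: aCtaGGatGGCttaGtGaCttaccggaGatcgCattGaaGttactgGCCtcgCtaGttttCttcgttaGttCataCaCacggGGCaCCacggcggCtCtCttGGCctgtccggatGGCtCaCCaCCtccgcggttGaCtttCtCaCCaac
ATGP1 locus AT5TE36040, chr5:9890255-9890404, CpHpH: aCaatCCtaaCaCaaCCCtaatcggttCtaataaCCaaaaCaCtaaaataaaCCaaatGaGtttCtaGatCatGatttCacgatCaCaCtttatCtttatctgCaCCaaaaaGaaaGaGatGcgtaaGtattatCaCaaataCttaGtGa
ATGP1 locus AT5TE46515, chr5:13070555-13070704, CpHpG: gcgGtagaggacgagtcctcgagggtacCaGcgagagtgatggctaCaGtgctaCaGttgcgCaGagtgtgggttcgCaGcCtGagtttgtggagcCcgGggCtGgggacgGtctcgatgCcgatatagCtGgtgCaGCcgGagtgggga
ATGP1 locus AT3TE62245, chr3:15318701-15319000, CpHpH: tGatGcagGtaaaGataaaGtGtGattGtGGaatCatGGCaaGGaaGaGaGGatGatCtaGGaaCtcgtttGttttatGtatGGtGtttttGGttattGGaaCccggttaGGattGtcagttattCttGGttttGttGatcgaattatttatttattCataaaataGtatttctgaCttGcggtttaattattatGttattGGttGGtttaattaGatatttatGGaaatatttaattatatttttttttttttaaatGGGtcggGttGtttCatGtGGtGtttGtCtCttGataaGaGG
ATGP1 locus AT4TE27915, chr4:6536951-6537100, CpHpH: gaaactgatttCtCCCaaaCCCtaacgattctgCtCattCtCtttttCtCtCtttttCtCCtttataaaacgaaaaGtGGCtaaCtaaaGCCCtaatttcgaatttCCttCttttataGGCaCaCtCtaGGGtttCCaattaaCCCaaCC
These stretches held between 11 and 72 cytosines of their context. The ATGP2 region lay within the pseudogene AT1G36800 and the AT5TE46515 region within the pseudogene AT5G34849, while the other 4 overlapped no annotated gene, with the nearest at 304 to 3402 bp. The AT4TE27915 stretch had 103 near copies elsewhere in the genome (at least 85% identity over at least 80% of the length), AT3TE62245 had 71, AT5TE46515 35, AT5TE36040 5, AT4TE20605 1 and AT1TE45795 none.

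Of the 775 ATGP regions, 282 were called in CpG, 224 in CpHpG and 269 in CpHpH. ATGP1 gave 374 of them, from 94 loci, followed by ATGP3 (85 regions), ATGP10 (76), ATGP2 (62), ATGP8 (49), ATGP2N (46), ATGP5 and ATGP7 (33 each), ATGP6 (16) and ATGP9B (1). The families differed in the context of their regions. CpHpH made up 189 of the 374 ATGP1 regions (50.5%), but only 2 of 76 in ATGP10 and 2 of 33 in ATGP5, where CpG led with 43 and 22 regions. In ATGP2 and ATGP3 the most frequent context was CpHpG, with 29 of 62 and 38 of 85 regions. Most regions were single 150 bp bins (746), and 24 were 300 bp wide, 4 were 450 bp and 1 was 750 bp.

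ATGP regions made up a larger share of the listed CpHpG regions than of the other contexts in each comparison. The shares in CpHpG were 6.05% (FLL vs FLH), 6.20% (SQL vs SQH), 5.40% (FLH vs SQH) and 5.46% (FLL vs SQL). In CpHpH they were between 2.06% and 2.21%, and in CpG between 1.32% and 3.96%. Among listed regions with a TE name the CpG and CpHpG shares lay closer together. They were 7.79% in CpG and 7.93% in CpHpG in FLL vs FLH, 6.87% and 6.90% in FLH vs SQH, 6.68% and 7.08% in FLL vs SQL, and 1.96% and 6.99% in SQL vs SQH. How many ATGP bins could have been called in each context was not analysed here, since only listed regions were at hand.

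The regions were also described by features that their choice did not use, beside all 20094 distinct listed regions. The median ATGP region had 13 near copies in the genome, against 1 for all listed regions and 4 for those in other TEs. At least 1 was found for 517 of 674 (76.7%), against 55.7% of all listed regions and 66.8% of those in other TEs. In CpHpG alone 68.7% of ATGP regions had a near copy, against 63.5% of all listed regions and 69.8% of those in other TEs. Near-identical copies (at least 99%) were found for 52 ATGP regions (7.72%), against 4.99% of all listed and 6.17% of other TE regions. Median GC content was 43.3% for ATGP, 35.3% for all listed and 34% for other TE regions. Gene-poor windows of 500 kb, with fewer than 0.5 of the median of 130 genes, were 16.25% of the windows of the genome. They held 463 ATGP regions (68.7%), against 36.1% of all listed regions and 42.6% of those in other TEs. By context the shares of ATGP and other TE regions were 79.2% and 65.3% in CpG, and 77.1% and 65.7% in CpHpG. In CpHpH they were 48.6% and 24.1%. The families were unlike each other here too, since 292 of 316 distinct ATGP1 regions (92.4%) had a near copy and only 16 of 80 ATGP3 regions. CCG made up 26.6% of the CpHpG cytosines in ATGP CpHpG regions, against 17.7% in all listed ones, and 47.6% in ATGP2. Among 185 gene names given for ATGP regions, 183 matched the annotation, and 168 of those genes were pseudogenes and 13 protein coding. Reads from near copies can be placed at the wrong copy, and values for regions with no near copy are therefore given further on.

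Depth at the ATGP regions was modest. The median was between 5.87 and 7.93 reads per cytosine over the 4 regimes and 3 contexts, and no region had under 4 in either library. Intervals given below are 95% Wilson intervals for shares and 95% normal intervals for differences. They cover counting error only, and reads summed over neighbouring cytosines are not independent molecules. The reads of a library were identical wherever 2 comparisons listed the same region (745 to 1555 regions per library over all families), so 2 comparisons with a common library are not separate observations of it.

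**Figure D1:**
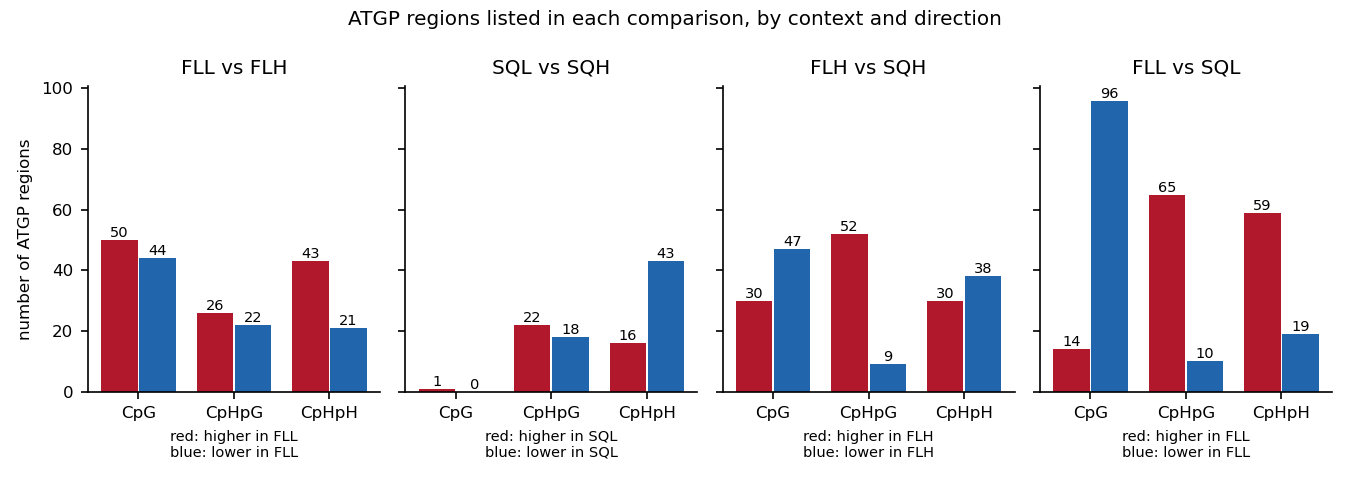
Number of ATGP regions (vertical axis) by cytosine context in each of the 4 comparisons; red bars are regions with a higher methylation level in the first-named regime and blue bars those with a lower one. FLL vs SQL has 96 of 110 CpG regions lower and 65 of 75 CpHpG regions higher in FLL, while the bars of FLL vs FLH are closer to even in CpG (50 and 44) and CpHpG (26 and 22).

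The comparison of light pattern at low intensity, FLL vs SQL, gave the most ATGP regions (263 of 8479 listed) and also had the longest list. As a share of the list this was 3.10%, beside 3.28% in FLL vs FLH, 3.14% in FLH vs SQH and 2.86% in SQL vs SQH. CpG methylation was mostly lower and methylation in both other contexts mostly higher in FLL. In CpG only 14 of 110 ATGP regions (12.7%, 7.73% to 20.2%) were higher in FLL, beside 22.4% of all listed CpG regions of that comparison and 15.8% of those in other TEs, a share inside the interval. In CpHpG 65 of 75 (86.7%, 77.2% to 92.6%) were higher, against 82.8% of all listed, and in CpHpH 59 of 78 (75.6%, 65.1% to 83.8%), against 73.3%. Over summed reads the CpG level was 63.5% in FLL and 81.7% in SQL, a difference of -18.18 percentage points (-19.45 to -16.92). The CpHpG level was 54.0% in FLL and 35.5% in SQL, a difference of 18.48 points (16.81 to 20.16). The CpHpH level was 19.4% in FLL and 11.99% in SQL, a difference of 7.43 points (6.79 to 8.07). The medians of the regions were -22.58, 24.01 and 10.90 points in CpG, CpHpG and CpHpH, beside -23.20, 24.00 and 11.50 for all listed regions. No CpG or CpHpG region under 20 points and no CpHpH region under 10 points was listed. A median of signed differences, here and below, therefore takes the sign of the majority, however small. The ATGP regions thus went the same way as the whole list in all 3 contexts.

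At high intensity, FLH vs SQH gave 206 ATGP regions of 6554 listed. In CpHpG 52 of 61 (85.2%, 74.3% to 92.0%) were higher in FLH, beside 78.6% of all listed. In CpG 30 of 77 (39.0%, 28.8% to 50.1%) were higher, beside 42.4%, and in CpHpH 30 of 68 (44.1%, 32.9% to 55.9%), beside 44.7%. The CpHpG level was 52.4% in FLH and 32.3% in SQH, 20.11 points apart (18.26 to 21.97). The CpG level was 68.6% in FLH and 74.8% in SQH, a difference of -6.27 points (-7.86 to -4.68), but of 2.54 points in the 10 regions where both libraries had 8 or more reads per cytosine. The CpHpH level was 15.1% in FLH and 17.8% in SQH, a difference of -2.67 points (-3.46 to -1.89). CpHpG regions were therefore mostly higher under fluctuating light at both intensities, and these 2 comparisons share no library. The median differences were -21.33, 23.86 and -10.73 points for ATGP, beside -21.13, 24.39 and -10.45 for all listed regions.

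Of the comparisons of intensity, FLL vs FLH was close to even in CpG and CpHpG. In FLL vs FLH (206 of 6272 listed) 50 of 94 CpG regions (53.2%, 43.2% to 63.0%) were higher in FLL, beside 51.3% of all listed. In CpHpG 26 of 48 (54.2%, 40.3% to 67.4%) were higher, beside 62.2%, and in CpHpH 43 of 64 (67.2%, 55.0% to 77.4%), beside 65.5%. The CpG level was 74.1% in FLL and 72.7% in FLH, a difference of 1.40 points whose interval included 0 (-0.04 to 2.84). The CpHpG level was 46.7% in FLL and 43.5% in FLH, 3.16 points apart (0.99 to 5.34). The CpHpH level was 20.6% in FLL and 15.6% in FLH, 5.04 points apart (4.27 to 5.81). In the 17 CpG regions where both libraries had 8 or more reads per cytosine, the difference was -0.87 points, the opposite sign. The medians were 20.66, 21.58 and 11.29 points, beside 20.25, 22.42 and 11.10 for all listed regions. With 50 of 94 CpG regions higher, the median of 20.66 points is no typical shift, and the level difference was 1.40 points.

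SQL vs SQH gave the fewest, 100 of 3501 listed. In CpHpH 16 of 59 (27.1%, 17.4% to 39.6%) were higher in SQL, beside 34.6% of all listed, and in CpHpG 22 of 40 (55.0%, 39.8% to 69.3%), beside 54.1%. The CpHpH level was 14.4% in SQL and 19.9% in SQH, a difference of -5.44 points (-6.24 to -4.64). The CpHpG level was 41.7% in SQL and 37.6% in SQH, a difference of 4.05 points (1.79 to 6.31). The medians were 20.59 points in CpHpG and -10.89 in CpHpH, beside 21.17 and -11.14 for all listed regions. This table lists no CpG region that differs by under 40.2 points, while the other 3 start at 20. With a minimum of 40 points, 2 ATGP CpG regions would be left in FLL vs FLH, 3 in FLH vs SQH and 1 in FLL vs SQL. Its 1 CpG region, in ATGP10 locus AT5TE40390 (chr5:11157455-11157604), had 38 of 45 reads methylated in SQL (84.4%) and 11 of 27 in SQH (40.7%), and is named because it was the only one. Over all families 80.3% of the 76 listed CpG regions were higher in SQL.

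**Figure D2:**
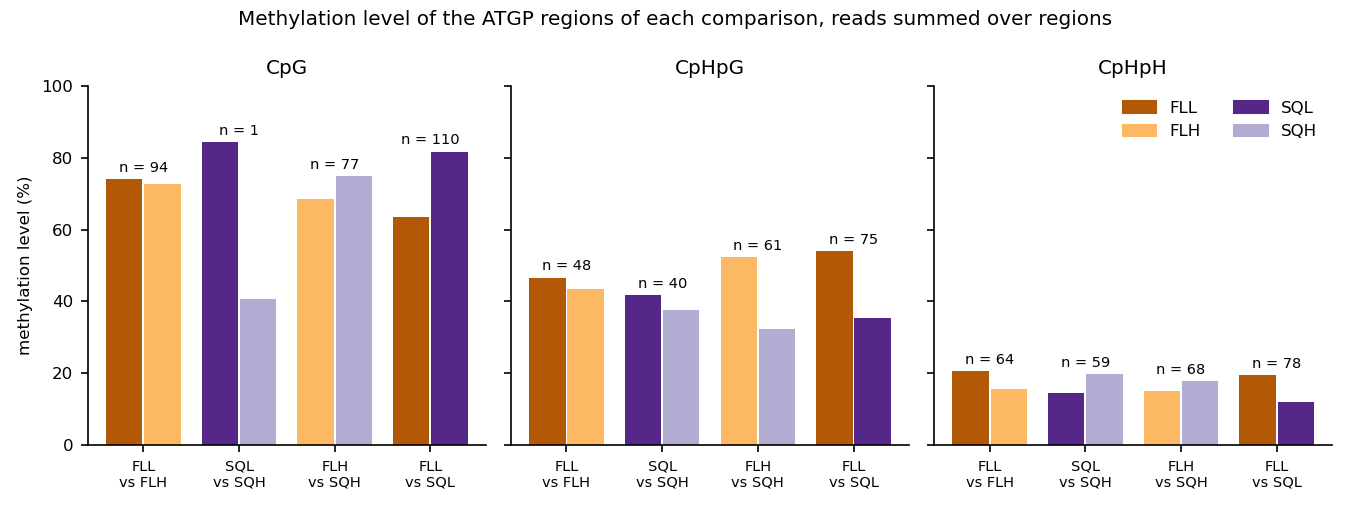
Methylation level in percent (vertical axis), from reads summed over the ATGP regions of each comparison and context, with 1 bar per library and n regions per pair. Apart from the single CpG region of SQL vs SQH, the widest gaps are in the light pattern comparisons, such as 54.0% in FLL against 35.5% in SQL in CpHpG; the regions differ between pairs, so bars of different pairs are not the same loci.

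The read test of each region (two-sided Fisher's exact test on methylated and unmethylated reads, Benjamini-Hochberg adjusted over all listed regions of the table, threshold 0.01) passed for 205 of 206 ATGP regions in FLL vs FLH, all 100 in SQL vs SQH, all 206 in FLH vs SQH and all 263 in FLL vs SQL. Over all listed regions it passed for 99.5%, 99.4%, 99.5% and 99.6%. The regions had been called on these same reads, so these shares say nothing of the ATGP regions in particular. The exception, named after its value was seen, was a CpHpH region of ATGP1 locus AT3TE46670 with 74 of 238 reads methylated in FLL and 33 of 169 in FLH. Fisher's exact test with the same adjustment passed for 0 ATGP regions when each library counted only as many observations as its average coverage of a cytosine. By that count 1 region in SQL vs SQH and 0 in each of the other comparisons had an unadjusted p below 0.05. It passed for 0 of all listed regions too. With median depths between 5.87 and 7.93 at the ATGP regions, so few observations can hardly reach the threshold, and the 0 says nothing of these regions in particular.

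The CpG and CpHpG differences of FLL vs SQL were not carried by ATGP1 alone. In FLL vs SQL, CpG regions lower in FLL outnumbered higher ones in all 9 families with CpG regions. They were 38 of 42 in ATGP1, 13 of 17 in ATGP10, 9 of 10 in ATGP8, 9 of 9 in ATGP3, 8 of 11 in ATGP2, 5 of 7 in ATGP5, 5 of 5 in each of ATGP2N and ATGP7, and 4 of 4 in ATGP6. The CpG level was 59.7% in FLL and 80.3% in SQL for ATGP1, 69.4% and 82.9% for ATGP10, and 64.6% and 88.3% for ATGP3. In FLH vs SQH the families were mixed in CpG. Lower in FLH were 14 of 25 regions in ATGP1, 6 of 11 in ATGP10, 4 of 8 in ATGP2 and 3 of 6 in ATGP3. The other families had 4 of 7 (ATGP2N), 6 of 7 (ATGP5), 1 of 2 (ATGP6), 4 of 4 (ATGP7) and 5 of 7 (ATGP8).

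In CpHpG, FLL vs SQL had 27 of 29 ATGP1 regions, 16 of 17 ATGP10 regions and 11 of 13 ATGP3 regions higher in FLL. The CpHpG level was 62.2% in FLL and 41.0% in SQL for ATGP1, 50.1% and 25.6% for ATGP10, and 52.1% and 37.4% for ATGP3. ATGP2 had 5 of 7 regions higher, ATGP2N 3 of 4, ATGP7 2 of 2 and ATGP5 1 of 2, and the 1 ATGP8 region was lower. In FLH vs SQH all 9 ATGP3 regions and all 6 ATGP10 regions were higher in FLH, with CpHpG levels of 58.2% in FLH and 31.9% in SQH for ATGP3 and 55.1% and 29.8% for ATGP10. ATGP2 had 9 of 10 higher in FLH and ATGP1 18 of 23. ATGP2N had 3 of 3, ATGP6 2 of 2, ATGP5 1 of 1, ATGP8 3 of 5 and ATGP7 1 of 2.

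In CpHpH too the families were not all alike in direction. In FLL vs SQL all 8 ATGP3 regions and all 4 ATGP2N regions were higher in FLL, with 20.5% in FLL and 8.36% in SQL for ATGP3. ATGP1 had 36 of 51 higher and ATGP7 5 of 6, but ATGP8 only 2 of 5, with 14.9% in FLL and 17.2% in SQL. In SQL vs SQH 28 of 40 ATGP1 regions and 5 of 6 ATGP8 regions were lower in SQL, and ATGP8 had 6.85% in SQL and 17.2% in SQH. Most families other than ATGP1 had under 10 regions per context and comparison, and whether families differ was not tested. The regions with no near copy, a split also chosen after its values were seen, went the same way as the rest in the 4 cases given here. Of these, 17 of 19 CpHpG regions were higher in FLH vs SQH, and in FLL vs SQL 3 of 29 CpG, 14 of 18 CpHpG and 11 of 11 CpHpH regions were. Among regions with a near copy the counts were 35 of 42 in FLH vs SQH and 11 of 81, 51 of 57 and 48 of 67 in FLL vs SQL. In CpHpG of SQL vs SQH 7 of 15 regions with no near copy were higher in SQL, against 15 of 25 with one. The median differences were -20.93 and 21.51 points, whose signs follow these majorities because no difference under 20 points is listed. In CpHpG of FLL vs FLH 10 of 16 with no near copy were higher in FLL, against 16 of 32.

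**Figure D3:**
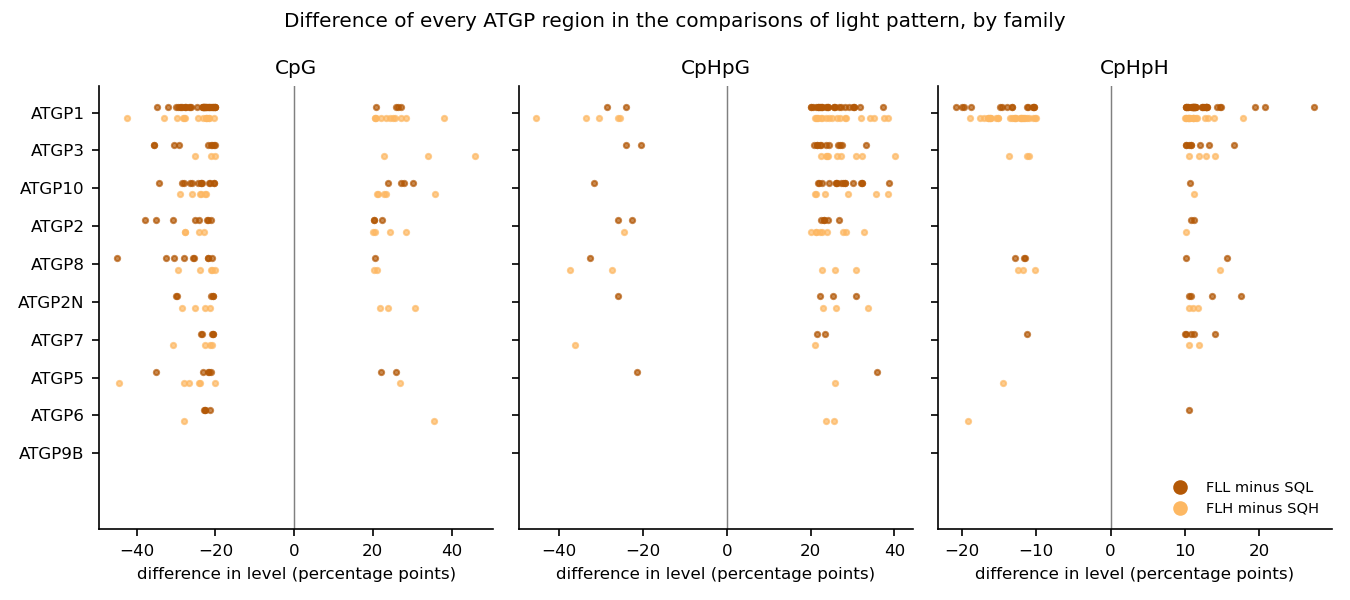
Difference in methylation level in percentage points (horizontal axis) for every ATGP region of FLL vs SQL (dark) and FLH vs SQH (light), by family (rows) and context (panels). Points to the right of 0 are higher in FLL or FLH; in CpHpG most points lie right of 0 and in CpG of FLL vs SQL 96 of 110 lie left, and the empty band around 0 is the minimum difference for a region to be listed.

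ATGP1 had enough regions to be followed along the element, a split chosen after its values were seen. A copy at AT2TE07550 (chr2:1629633-1637481, 7849 bp, carrying the pseudogene AT2G04670 on the minus strand) has terminal repeats of 1156 and 1154 bp that are 97.4% identical, and 358 of the 374 ATGP1 regions could be placed on it. The LTRs cover 29.4% of its length and hold 27.3% of its CpG, 19.6% of its CpHpG and 23.7% of its CpHpH cytosines. Of the ATGP1 CpHpH regions 113 of 189 (59.8%) fell in the LTRs, while 62 of 79 CpHpG regions and 66 of 106 CpG regions fell in the internal part. The shares of length and cytosines are those of 1 full copy, while the regions come from 94 loci, some of them fragments. How much LTR sequence these loci hold, and how many of its bins could have been called, was not analysed here. The CpHpH regions were not spread evenly over the LTR. Counted in 150 bp steps from its start in coding orientation, 22 lay at 1-150, 25 at 751-900 and 28 at 901-1050, and none at 301-450.

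The parts are described separately by direction. In FLL vs SQL all 24 internal CpHpG regions of ATGP1 and 23 of 24 internal CpHpH regions were higher in FLL, and 25 of 27 internal CpG regions were lower. The internal levels were 68.0% in FLL and 43.8% in SQL in CpHpG, 21.2% and 9.80% in CpHpH, and 69.1% and 89.0% in CpG. In the LTRs only 12 of 25 CpHpH regions were higher, with 18.4% in FLL and 17.0% in SQL, and 11 of 13 CpG regions were lower. The exceptions inside the element, named after their values were seen, were a CpHpH region of AT2TE25540 (10.3% in FLL and 21.5% in SQL) and the CpG regions of AT2TE18980 (90.9% and 63.8%) and AT5TE44310 (85.4% and 64.6%).

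In FLH vs SQH 15 of 17 internal CpHpG regions were higher in FLH, with 67.3% in FLH and 44.7% in SQH. The LTR CpHpH regions of that comparison were mostly lower in FLH (21 of 30), with 15.4% in FLH and 22.7% in SQH, and the internal ones were split 9 to 8. In SQL vs SQH 18 of 23 LTR regions and 10 of 16 internal regions in CpHpH were lower in SQL. In FLL vs FLH 24 of 35 LTR regions and 10 of 15 internal regions in CpHpH were higher in FLL. Several regions come from 1 locus and the LTRs of 1 copy are nearly alike, so these counts are not independent, and the difference between parts was not tested.

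**Figure D4:**
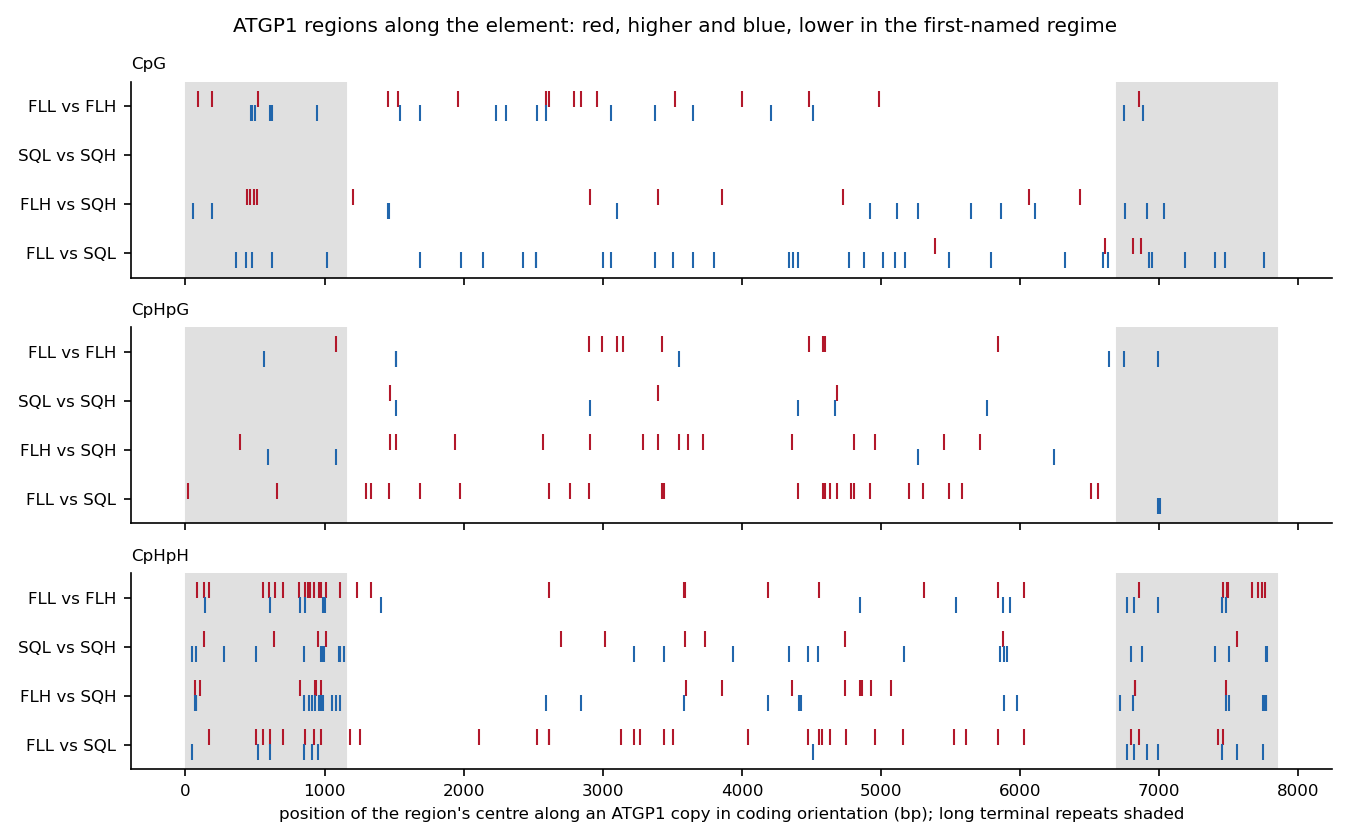
Position of the centre of each placed ATGP1 region along the 7849 bp copy in coding orientation (horizontal axis, bp), by comparison (rows) and context (panels); grey marks the LTRs, red ticks are higher and blue ticks lower in the first-named regime. All 24 internal CpHpG ticks of FLL vs SQL are red, and 113 of 189 CpHpH regions lie in the LTRs.

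The 6 regions listed in both comparisons of a pair without a common library, and so with counts of all 4 regimes, each went the same way in both. Over all families, 287 of 583 regions listed in both pattern comparisons and 151 of 338 listed in both intensity comparisons had the same direction, so 6 ATGP regions are few to read a rule from. The 3 ATGP regions common to the pattern comparisons were 1.14% of those in FLL vs SQL and 1.46% of those in FLH vs SQH. Over all listed regions these shares were 6.88% and 8.90%. The 3 common to the intensity comparisons were 1.46% of those in FLL vs FLH and 3% of those in SQL vs SQH, against 5.39% and 9.65% over all listed regions.

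The first 3 separated the libraries by light pattern. The ATGP8 region of AT4TE20605 had CpG levels of 70.5% in FLL (74 of 105 reads) and 72.4% in FLH (63 of 87), against 92.5% in SQL (98 of 106) and 92.5% in SQH (62 of 67). Both fluctuating libraries were lower than both square libraries, and their intervals did not overlap (at most 80.7% in FLH and at least 83.7% in SQH). The ATGP2 region of AT1TE45795 went the other way in CpHpH, with 16.3% in FLL (54 of 331) and 14.7% in FLH (32 of 217), against 5.41% in SQL (12 of 222) and 4.59% in SQH (10 of 218). The ATGP1 region of AT5TE36040, in an LTR, had CpHpH levels of 9.28% in FLL (32 of 345) and 18.1% in FLH (54 of 299), against 29.3% in SQL (71 of 242) and 30.1% in SQH (83 of 276). Here the FLL level was also lower than the FLH level, but that pair was not listed as a DMR.

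The other 3, all ATGP1, were listed in both comparisons of intensity. The internal CpHpG region of AT5TE46515 had 29.9% in FLL (40 of 134) and 36.5% in SQL (50 of 137), against 50.0% in FLH (76 of 152) and 56.7% in SQH (59 of 104). The LTR region of AT3TE62245 had CpHpH levels of 22.1% in FLL (111 of 503) and 20.5% in SQL (83 of 404), against 7.27% in FLH (37 of 509) and 8.15% in SQH (30 of 368). The LTR region of AT4TE27915 was the most methylated of the CpHpH regions among the 6, with 56.1% in FLL (193 of 344) and 47.9% in SQL (223 of 466), against 39.8% in FLH (141 of 354) and 33.3% in SQH (151 of 454). The levels of both low-intensity libraries were thus lower in CpHpG at the first locus and higher in CpHpH at the other 2. The intervals of the 2 intensities were clear of each other only at AT3TE62245. Those of SQL and FLH overlapped at AT5TE46515 (28.9% to 44.8% in SQL and 42.1% to 57.9% in FLH) and at AT4TE27915 (43.4% to 52.4% in SQL and 34.9% to 45.0% in FLH). The Benjamini-Hochberg adjusted p of Fisher's exact test over the 12 listings was between 9.97e-10 and 0.00298. The 6 regions were picked from those called on these same reads, so small values were fixed in advance.

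**Figure D5:**
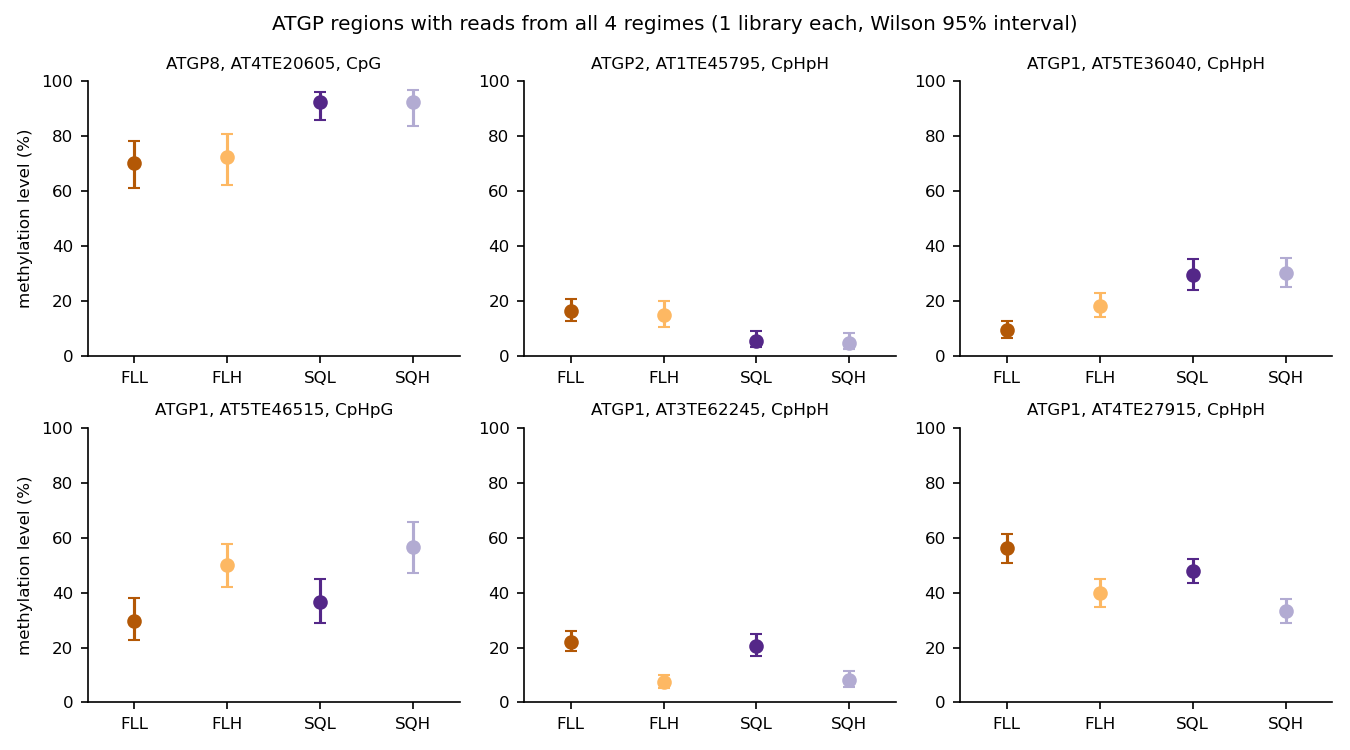
Methylation level in percent (vertical axis) of the 6 ATGP regions listed in both comparisons of a pair without a common library. There is 1 panel per region and 1 point per library, with 95% Wilson intervals for counting error. In the upper row FLL and FLH lie apart from SQL and SQH; in the lower row the FLL and SQL points lie on 1 side of FLH and SQH, with intervals clear of each other at AT3TE62245 (22.1% and 20.5% against 7.27% and 8.15%) and SQL and FLH intervals that overlap at the other 2.

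ATGP2N, ATGP3, ATGP5, ATGP6, ATGP7, ATGP9B and ATGP10 gave no region of this kind. AT3TE62245 had a further listing within the same stretch (chr3:15318851-15319000). There CpHpG was 33.3% in FLL (14 of 42) and 3.13% in FLH (1 of 32, 0.55% to 15.7%), against 48.5% in SQH (16 of 33). Its 45.4 points between FLH and SQH were the largest CpHpG difference of that comparison where both libraries had 8 or more reads per cytosine. FLH was thus the lowest of the 3 listed libraries in CpHpG, while FLH and SQH were both low in CpHpH at that locus.

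The 5 loci with the most ATGP regions were all ATGP1 copies with terminal repeats at both ends. AT2TE07550 and AT5TE47395 had 15 regions each, AT3TE66175 13, and AT4TE27915 and AT5TE56030 12 each. In AT2TE07550 12 of 15 regions were CpHpH, and 4 of the 5 CpHpH regions in FLL vs SQL were higher in FLL, all 4 in the internal part, for example 29.2% in FLL (92 of 315) and 16.3% in SQL (52 of 320) at chr2:1632851-1633000. The fifth, in the LTR at chr2:1629851-1630000, was lower, with 27.9% in FLL (61 of 219) and 46.7% in SQL (113 of 242). AT5TE47395, which carries the pseudogene AT5G35113, had 7 CpHpH regions, all higher in the first-named regime of their comparison. They were 3 in FLL vs FLH, 2 in FLL vs SQL, 1 in FLH vs SQH and 1 in SQL vs SQH, and FLL is common to the first 2 comparisons. Its region at chr5:13373255-13373404 had 26.1% in FLL (84 of 322), against 12.5% in FLH (53 of 424) and 6.57% in SQL (36 of 548).

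AT3TE66175, with the pseudogene AT3G44796, had more lower than higher regions, with 4 of 13 higher in the first-named regime of their comparison. The higher ones were 1 CpG and 1 CpHpH region in FLL vs FLH and 2 CpHpH regions in FLL vs SQL. The LTR region at chr3:16341401-16341550 had a CpHpH level of 11.4% in FLL (28 of 246), against 34.7% in FLH (134 of 386) and 26.3% in SQL (78 of 297). Another bin of the same LTR (chr3:16341101-16341250) had a CpHpG level of 10.2% in FLL (12 of 118) and 34.2% in SQL (27 of 79). AT4TE27915, with the pseudogene AT4G10580, had 11 CpHpH regions, and all 4 in FLL vs SQL were higher in FLL (26.2% and 12.9% over summed reads). In the LTR of its printed stretch, a 450 bp region (chr4:6536051-6536500) had 32.7% in FLL (259 of 793) and 16.8% in FLH (153 of 912).

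AT5TE56030, with the pseudogene AT5G38705, showed both directions within 1 LTR. At chr5:15497705-15497854 CpHpH was 34.5% in FLL (144 of 417), against 17.1% in FLH (49 of 286) and 13.7% in SQL (37 of 271). At chr5:15498455-15498604, CpHpH was 26.4% in FLL (68 of 258), against 42.1% in FLH (126 of 299) and 41.0% in SQL (107 of 261). The outer end of the LTR was thus lower and its inner part higher in FLL at this locus. The widest ATGP region, 750 bp named for AT2TE23510 (chr2:5779601-5780350), had a CpHpH level of 18.6% in FLL (213 of 1148) and 8.33% in SQL (97 of 1165). A listed bin at its start (chr2:5779601-5779750) was named for another ATGP1 locus, AT2TE23505.

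Where both libraries had 8 or more reads per cytosine, the region with the largest difference was taken in each comparison and context. In 3 cases it fell in 1 ATGP6 locus, AT5TE72140, which overlaps the end of the protein-coding gene AT5G49420 outside its coding sequence. Its CpG region at chr5:20034905-20035054 had 0 of 44 reads methylated in FLL, which allows a level of up to 6.82%, and 17 of 48 in FLH (35.4%, 23.4% to 49.6%). SQH had 0 of 46 there, which allows up to 6.52%, so FLH stood apart from both other listed libraries. Both bounds are 3 divided by the number of reads and are not Wilson limits. The Wilson interval of SQH reaches 7.71%. In CpHpH, a 150 bp region of the locus (chr5:20034455-20034604) had 21.1% in FLL (96 of 455) and 7.33% in FLH (33 of 450). The 300 bp region from the same start had 20.7% in FLL (217 of 1046) and 10.2% in SQL (108 of 1063), so FLL was the highest of the libraries listed there. The 150 bp stretch is shown because it held many reads and lies 68 bp beyond the gene, with CpHpH cytosines in capitals.
ATGP6 locus AT5TE72140, chr5:20034455-20034604, CpHpH: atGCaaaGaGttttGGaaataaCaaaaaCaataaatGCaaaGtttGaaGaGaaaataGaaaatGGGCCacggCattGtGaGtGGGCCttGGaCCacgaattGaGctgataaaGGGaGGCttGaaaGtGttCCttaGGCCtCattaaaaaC

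The largest differences of the other comparisons and contexts lay in 4 families, and that of CpHpH in SQL vs SQH was the AT4TE27915 stretch above. An LTR-derived ATGP1 stretch at AT1TE35465 (chr1:10983451-10983600), with no near copy, had CpHpH levels of 10.0% in FLH (32 of 319) and 23.0% in SQH (82 of 357). It is shown because it lies near the same end of the LTR as the printed stretch of AT4TE27915, with CpHpH cytosines in capitals.
ATGP1 locus AT1TE35465, chr1:10983451-10983600, CpHpH: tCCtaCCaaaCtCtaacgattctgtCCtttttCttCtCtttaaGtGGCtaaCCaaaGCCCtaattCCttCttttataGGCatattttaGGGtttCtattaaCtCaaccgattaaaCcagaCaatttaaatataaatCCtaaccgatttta
An ATGP1 LTR bin at AT5TE48595 (chr5:13656755-13656904) had CpG levels of 36.4% in FLL (12 of 33) and 76.5% in FLH (26 of 34). An ATGP5 region at AT5TE41635 (chr5:11517905-11518054), in the pseudogene AT5G31778, had 44.4% in FLL (16 of 36) and 79.7% in SQL (47 of 59) in CpG. In CpHpG, ATGP8 locus AT3TE53165 (chr3:12959951-12960100) had 61.4% in FLL (27 of 44) and 21.2% in FLH (7 of 33), and SQH had 58.5% there (24 of 41). ATGP10 locus AT5TE40530 (chr5:11199455-11199604) had 48.1% in FLL (26 of 54) and 15.8% in SQL (6 of 38) in CpHpG, and AT2TE16620 (chr2:3891851-3892000), also ATGP10, had 62.9% in SQL (22 of 35) and 25.0% in SQH (9 of 36). These 5 regions have 4 cytosines of their context each, so few reads stand behind them and intervals are wide, for example 46.3% to 76.8% in SQL and 13.8% to 41.1% in SQH at AT2TE16620.

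Both ATGP1 CpHpG regions that were lower in FLL than in SQL lay in LTRs. One is the bin of AT3TE66175 given above. The other, in an ATGP1 fragment at AT4TE23990 (chr4:5727401-5727550), starts 133 bp beyond the end of AT4G08920, the gene of the blue-light receptor cryptochrome 1 (CRY1), and was singled out after its place was seen. Its CpHpG level was 2.86% in FLL (1 of 35, 0.51% to 14.5%), against 31.4% in SQL (11 of 35) and 28.9% in FLH (13 of 45). In CpHpH the same bin had 8.53% in FLL (18 of 211), against 19.6% in SQL (38 of 194) and 18.9% in FLH (42 of 222). FLL was the lowest library in both contexts there, and SQH was not listed. The Benjamini-Hochberg adjusted p of Fisher's exact test was between 0.00210 and 0.00353 over the 4 listings. The bin had been called on these same reads, so the test is no separate check. Whether the level there bears on the gene was not analysed here.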

How the data were processed

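The authors trimmed the reads with Trimmomatic 0.39 and aligned them to TAIR10 with Bismark and Bowtie2, as the submitters' processing notes name these tools, and DMRcaller was run on bins of 150 bp. The deposited tables hold, per region, counts of methylated and total reads per library, added up across all cytosines of 1 context and not normalized, with the number of cytosines and the TE and gene names. Their p-values, proportions, differences and directions are the authors' comparisons and were not used. The count columns were assigned to regimes from the order of the regimes in each table's name, and the reads of a regime were identical between tables.

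Levels (methylated over total reads), differences (first-named regime minus the second), Wilson intervals and Fisher's exact tests were computed with Python 3.11.15, SciPy 1.17.1, pandas 2.3.3 and numpy 2.4.6, and figures with matplotlib 3.10.9. The test was tested on simulated data. Those reads were drawn independently, so the simulation does not cover the dependence between reads of neighbouring cytosines. The number of cytosines matched the TAIR10.1 reference sequence in 24804 of 24805 nuclear regions and in all 775 ATGP regions. Near copies and terminal repeats were found with BLAST 2.17.0. Named are, per comparison and context, the region of largest difference where both libraries had 8 or more reads per cytosine, every bin listed in both comparisons of a pair without a common library, the 5 loci with the most regions and the widest region. Sequences, read from TAIR10.1, are shown for the bins listed in both comparisons of such a pair and for those regions of largest difference with most reads. Stretches in transcripts of protein-coding genes are left out. Intervals cover counting error only. The members, lists and tests were chosen with earlier results of these data known. The alternatives were depth, the CpG minimum difference, the TE naming, the leading locus, counting by lines or joined bins, weighting and the p threshold. The splits of ATGP1 by part and of regions by near copies were chosen after seeing the data.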

Additional observations from a re-analysis of the deposited data

Results flagged for a closer look

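The CpHpH level difference of the ATGP regions had opposite signs under the same contrast in 2 pairs of comparisons. For light pattern, it was -2.67 percentage points in FLH vs SQH (30 of 68 regions higher in FLH) and 7.43 points in FLL vs SQL (59 of 78 higher in FLL). For light intensity, it was 5.04 points in FLL vs FLH (43 of 64 higher in FLL) and -5.44 points in SQL vs SQH (16 of 59 higher in SQL). All listed CpHpH regions had the same signs, with -1.19 and 7.34 points for pattern and 4.49 and -4.54 points for intensity. These differences between comparisons were not tested, because each rests on 1 library per regime and on different regions.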

How the results depend on the processing

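No paired analysis was possible because there is 1 library per regime. At 8 or more reads per cytosine in both libraries, few regions were left: 27 in FLL vs FLH, 15 in SQL vs SQH, 17 in FLH vs SQH and 51 in FLL vs SQL. The CpG difference then turned to -0.87 points in FLL vs FLH and to 2.54 in FLH vs SQH, and was -15.13 in FLL vs SQL. The shares of higher regions, with the share of all listed regions at that depth after each, were 83.3% of 6 (CpHpG, 65.5%) and 50.0% of 4 (CpHpH, 68.3%) in FLL vs FLH, 72.7% of 11 (CpHpG, 56.3%) in SQL vs SQH, 60% of 10 (CpG, 43.8%), 66.7% of 6 (CpHpG, 78.1%) and 0% of 1 (CpHpH, 46.2%) in FLH vs SQH, and 94.4% of 18 (CpHpG, 81.3%) and 100% of 2 (CpHpH, 76.8%) in FLL vs SQL. The differences were 18.73 (CpHpG) and 1.44 points (CpHpH) in FLL vs FLH, 12.98 (CpHpG) in SQL vs SQH, 12.91 (CpHpG) and -12.94 (CpHpH) in FLH vs SQH, and 21.42 (CpHpG) and 10.53 (CpHpH) in FLL vs SQL. With a CpG minimum of 40 points throughout, 114 regions were left in FLL vs FLH, 132 in FLH vs SQH and 154 in FLL vs SQL; the CpG difference was -19.62 points in FLH vs SQH and -45.0 in FLL vs SQL, where 1 CpG region was left and 0% were higher. Counted by lines, SQL vs SQH had 166 ATGP entries. As an unweighted mean, the difference was 18.10 points for CpHpG in FLH vs SQH and 6.02 for CpHpH in FLL vs SQL. At an adjusted p of at most 0.001 (Fisher's exact test) 110, 57, 101 and 135 ATGP regions passed in FLL vs FLH, SQL vs SQH, FLH vs SQH and FLL vs SQL, and 0 with the mean reads per cytosine as observations. With the latter, 0 of all listed regions passed either. Among regions with no near copy, 100% of CpHpH regions in FLL vs SQL and 11.1% in SQL vs SQH were higher. Leaving out the locus with the most regions, in 28 of 28 values, and joining bins within 1 kb, in 16 of 16, moved a count by under 1.5 times and a share or difference by less than its counting error. The locus left out of a comparison held only between 3 and 7 of its regions. Some of these values could not change, such as CpHpG in FLL vs FLH, where that locus had no CpHpG region. Keeping only regions with 1 named TE family removed no region, so its 28 values could not change. The direction of CpHpG in both pattern comparisons was the same under the alternatives of depth, leading locus, joined bins, weighting and near copies. That of CpG in FLL vs SQL was the same under these and under the CpG minimum, which left 1 region there. The CpG minimum does not act on CpHpG regions. Few reads stand behind single regions, and no value here has replicate error.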
